A study of Mus musculus with 15 samples.

Results

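Cadherins and integrins are the main families of adhesion receptors through which cells hold on to each other and to the extracellular matrix. Their genes were followed here in the E10.5 mouse jaw primordium, where the members were 90 of the 45101 probe sets of an Affymetrix mouse array, 36 for cadherins and 54 for integrins. A probe set belonged if its single gene symbol was Cdh with a number, leaving out the epithelial Cdh1 and the endothelial Cdh5, or Itga or Itgb with a number or a letter such as v or l. The symbols came to 43 genes, 19 cadherins and 24 with an integrin symbol, of 18194 genes on the array. Itgbl1, whose product only resembles integrin beta subunits, met the wording of the rule and was counted. The rule for members used gene names and no measured value, but it was chosen with earlier results of these data known.

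Classical cadherins bind the same kind of cadherin on a neighbouring cell, and catenins tie their inner tails to the actin skeleton. Integrins are pairs of an alpha and a beta subunit that bind matrix proteins such as fibronectin, laminin and vitronectin, or membrane proteins such as VCAM1, and that signal through talin, kindlin and focal adhesion proteins. The jaws form from the first branchial arch, whose mesenchyme comes largely from the cranial neural crest, and crest cells change their cadherins and use integrins as they leave the neural tube, migrate and condense.

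The study measured RNA of the maxillary branch (upper jaw) and the mandibular branch (lower jaw) of the arch, with 3 arrays in each of 5 groups and all embryos at E10.5. The groups were the wild-type mandibular branch (WT mandibular), the mandibular branch of embryos lacking the homeobox genes Dlx5 and Dlx6 (Dlx5/6 mutant), the maxillary branch of embryos labelled only KO, and 2 groups of wild-type maxillary branch, labelled WT_MXA and WT_MXA2 and called set 1 and set 2. The labels named no gene for the KO group, no strain, no allele and no driver, and a planning note shared by all samples spoke of dlx2, dlx1/2 and Dlx5/6 mutants and of pooling arches. No label said whether arrays of a group came from separate embryos, so p-values measured only the spread between these arrays, which may be technical.

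The groups fell into 2 array sets by a bacterial spike-in control named dap, whose signal was 333 to 392 on 9 arrays (set 1 and the mandibular groups), and 2928 to 3298 on the 6 arrays of set 2 and the KO group. Comparisons were therefore made within an array set: mandibular arrays with set 1, and KO arrays with set 2. The median signal of an array ran from 26.6 to 33.5, and the correlation between arrays of a group from 0.984 to 0.990. Dlx5 averaged 10.9 on the Dlx5/6 mutant arrays and 727 on the WT mandibular arrays, and Dlx6 averaged 3.32 against 249.6. On the KO arrays Dlx2 averaged 3.36 against 422 in set 2, and Dlx1 209 against 711. Arch mesenchyme markers were present, with Twist1 averaging 1348 to 1842 over the groups, while Hoxa2, a gene of more posterior arches, stayed on average at 14.9 or less. The tissue was whole branch, and sums over a list of marker genes showed other cells in it, which are given beside the results they move with. In such bulk RNA fewer cells of a type and less RNA per cell cannot be told apart.

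Signals below are the deposited linear intensities, and ± after a group mean is the SD (n = 3). Differences are on the log2 scale after 32 was added to each signal, which understates the changes of dim genes, and ± after a difference is the SE. Adjusted p-values come from limma, over all probe sets kept, and a gene was called at an adjusted p under 0.05. Each gene was represented by its brightest probe set. Different probe sets bind differently, so signals are compared between groups and not between genes.

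Of the 43 genes, 32 had a probe set that passed the 40th percentile of an array on 3 arrays or more and were tested, 15 cadherins and 17 integrins. They passed through any group, so their number is a property of the filter. The other 11 were Cdh16, Cdh17, Cdh18, Cdh20, Itgam, Itgax, Itgb2, Itgb3, Itgb4, Itgb6 and Itgbl1. Their 13 probe sets lay between 0.301 and 38.2 and were above that percentile on at most 2 arrays. Among these are the leukocyte integrin chain gene Itgb2 and its partners Itgam and Itgax, and Itgb4, the beta chain of epithelial hemidesmosomes. Of the tested genes, 13 had a median signal of 50 or more over all arrays, a limit chosen after the values were seen.

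The 13 genes above that limit were the cadherin genes Cdh2 (N-cadherin), Cdh3 (P-cadherin), Cdh6 and Cdh11, the alpha subunit genes Itga3, Itga4, Itga6, Itga8, Itga9 and Itgav, and the beta subunit genes Itgb1, Itgb5 and Itgb8. Itgb1, Itgav and Cdh2 did not pass the test in any comparison. Itgb1, whose product pairs with most alpha subunits, had a lowest signal of 443, a median of 571 and a highest of 679 over the 15 arrays. Its difference was 0.00 ± 0.09 between the mandibular branch and set 1 (95% interval -0.19 to 0.19) and 0.01 ± 0.09 between the Dlx5/6 mutant and wild-type mandibular branch (-0.18 to 0.20). In the KO arrays its signals of 600.1, 587 and 567 were all above the 443, 533 and 524 of set 2, but the difference of 0.23 ± 0.09 did not pass (adjusted p = 0.36). Itgav, the alpha chain of the receptors for RGD sequences, ranged from 629 to 883 with a median of 701 and had differences between 0.00 and 0.06 in the 3 main comparisons. Cdh2, which crest-derived mesenchyme shares with neural tissue, ranged from 529.65 to 844 with a median of 692, and its largest difference among them was -0.26 ± 0.10 in the Dlx5/6 mutant (adjusted p = 0.23). Its dimmer probe set did not share that fall, with a difference of 0.02 ± 0.09 (adjusted p = 0.97). In the KO the dimmer probe set gave 0.19 ± 0.09 (adjusted p = 0.44) and the brighter -0.03 ± 0.10.

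**Figure D1:**
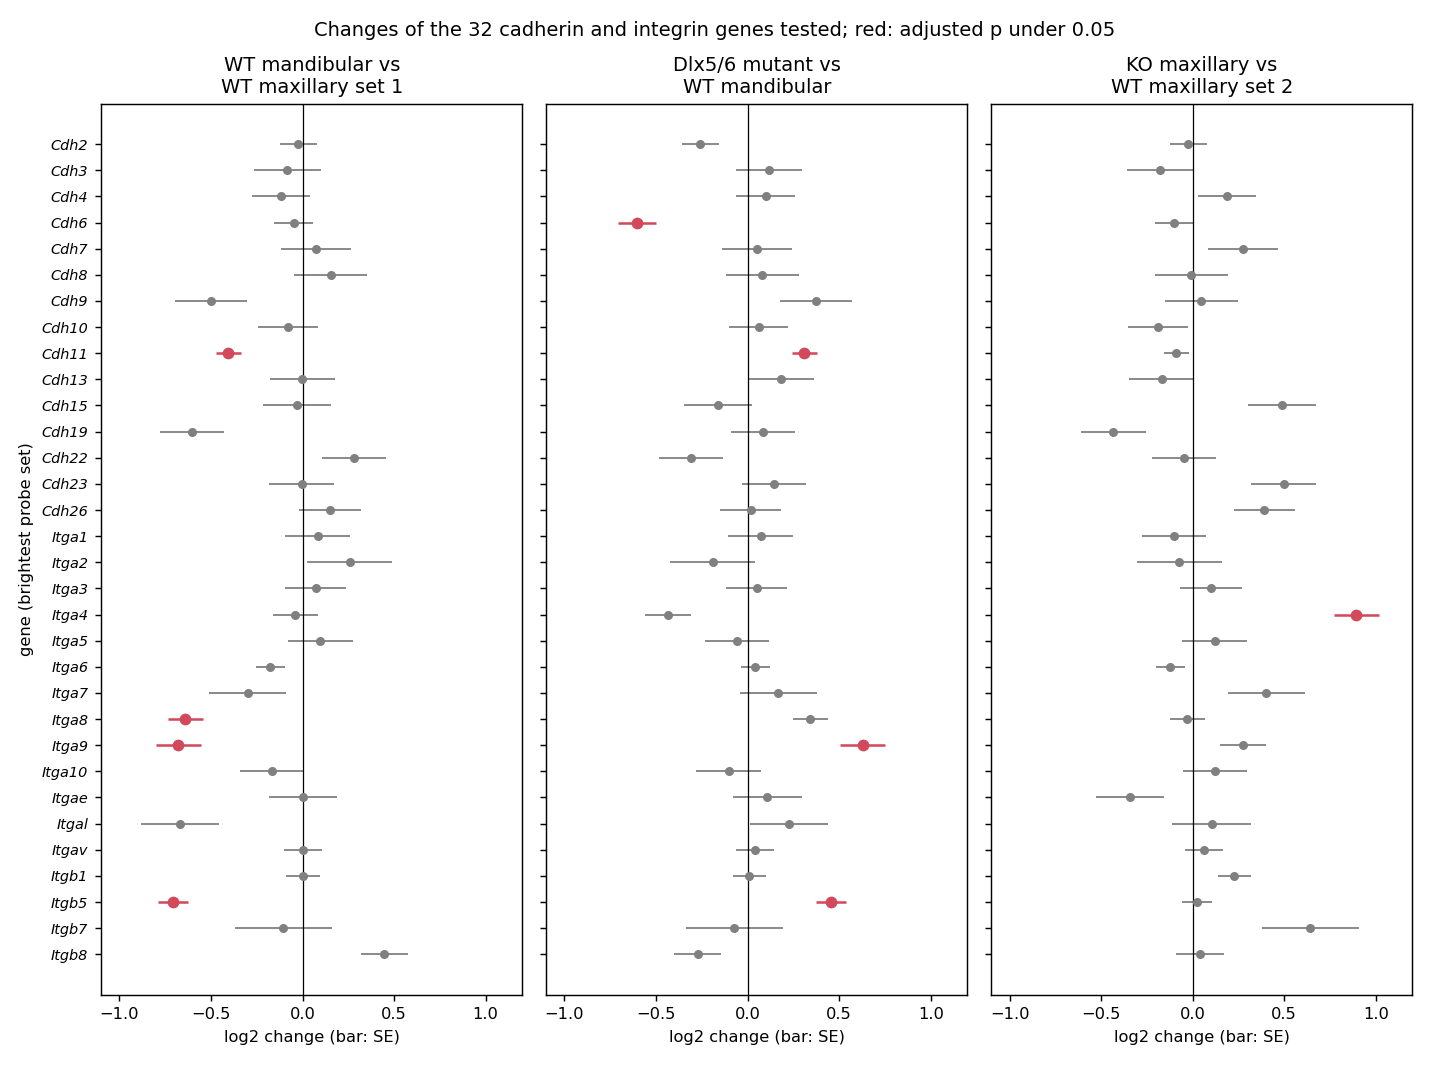
Log2 difference of each of the 32 tested cadherin and integrin genes (brightest probe set) in the 3 main comparisons, with the SE as bars and genes at an adjusted p under 0.05 in red. In the left panel the 4 red points lie below 0, in the middle panel 3 lie above 0 and Cdh6 lies below, and in the right panel Itga4 is the single red point, at 0.89.

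In the wild-type arch, 1 cadherin gene and 3 integrin genes were lower in the mandibular than in the maxillary branch: Cdh11, Itgb5, Itga8 and Itga9. No member was called higher. The call covered 4 of 32 members, or 12.5%, where it covered 3.56% of all 13934 genes; the lower direction alone held 2.00% and the higher 1.56% of all genes. The median difference was -0.03 over the members and 0.00 over all genes, and 9 members had an unadjusted p under 0.05. This comparison asks which genes set the lower jaw primordium apart from the upper one.

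Itgb5 encodes the beta chain that pairs with the Itgav product in the vitronectin receptor. Its signals were 640.05, 615 and 554 on the WT mandibular arrays and 975, 1104 and 877 in set 1. All mandibular arrays were below all maxillary ones, and the difference was -0.71 ± 0.08 (95% interval -0.88 to -0.54, adjusted p = 3.45e-06). In set 2 the signals of 911, 885 and 842 were also above the mandibular arrays, and the difference against them was -0.53 ± 0.08 (adjusted p = 9.9e-05). Over all kept probe sets, 2.64% were called here, 2.66% in the Dlx5/6 mutant and 0.913% in the KO. Itgb5 had 3 further kept probe sets, and all were called lower in the mandibular branch, by -0.58, -0.49 and -0.56. Its partner chain gene Itgav had no such difference, as given above.

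The promoter of Itgb5 is shown because it is the member with the most probe sets that moved together. The window holds 250 bases before and 50 after the annotated start, on the + strand of GRCm38.p6, from RefSeq. Capitals mark TAAT or ATTA, the core letters that homeodomain proteins such as the Dlx factors bind, searched on both strands.
Itgb5, chr16:33829415-33829714: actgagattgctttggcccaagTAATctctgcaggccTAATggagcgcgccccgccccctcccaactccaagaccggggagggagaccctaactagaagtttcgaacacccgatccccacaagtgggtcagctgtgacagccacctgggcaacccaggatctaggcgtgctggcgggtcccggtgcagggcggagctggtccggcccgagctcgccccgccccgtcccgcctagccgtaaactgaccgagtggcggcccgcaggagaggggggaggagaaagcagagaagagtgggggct
The window holds 2 matches, and 58.0% of 32851 promoter windows of that length hold at least 1. The longer forms TAATTA, as well as TAATTG, and also CAATTA, which overlap with that core, are in 12.4% of the windows and not in this window. A match describes letters only.

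Itga8 encodes the alpha chain of the nephronectin receptor. Its WT mandibular signals were 147, 169 and 171, against 299, 273 and 244 in set 1. The groups did not overlap, and the difference was -0.64 ± 0.10 (adjusted p = 1.48e-04). Against set 2, with signals of 251, 225 and 215, the difference was -0.46 ± 0.10 (adjusted p = 0.00269). The dimmer probe set of Itga8 had a difference of -0.54 ± 0.15 that missed the threshold (adjusted p = 0.0509). Its ligand gene Npnt averaged 205 ± 12.2 in the mandibular branch and 193 ± 26.1 in set 1, with a difference of 0.07 ± 0.11 (adjusted p = 0.88).

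Cdh11 encodes a cadherin of mesenchymal cells. Its signals were 2122, 2283 and 2653 on the WT mandibular arrays and 3132, 3030.4 and 2921 in set 1. The ranges were apart, and the difference of -0.41 ± 0.07 passed the test (95% interval -0.55 to -0.26, adjusted p = 5.71e-04). Against set 2 it was -0.32 ± 0.07 (adjusted p = 0.00269), and the other probe set fell by 0.43 (adjusted p = 0.00184). Sums over the 11 arch mesenchyme markers tested ran the same way, from 7887 to 8512 in the mandibular branch and from 9885 to 10475 in set 1, with 7 of the 11 called lower and 1, Pdgfra, higher. The list includes Dlx1, Dlx2 and other transcription factor genes, so its sum need not follow the amount of mesenchyme. The part of the amount of mesenchyme in the Cdh11 difference was not tested.

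Itga9 encodes an alpha chain that pairs with that of Itgb1 and binds VCAM1 and tenascin. Its signals of 82.9, 88.9 and 76.8 in the mandibular branch were below the 158, 143 and 159 of set 1, by -0.68 ± 0.12 (adjusted p = 0.00152). In set 2, however, the signals were 60.2, 87.8 and 63.8, which overlapped with the mandibular ones, and against set 2 the difference turned to 0.16 ± 0.12 (adjusted p = 0.48). Its 2 other kept probe sets were not called in any comparison. The lower mandibular level of Itga9 therefore holds for set 1 as control and not for set 2.

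Of the members that missed the threshold here, Itgb8, whose product pairs with that of Itgav and activates latent TGF-beta, was nearest in the other direction. Its signals of 86.6, 105 and 115 were above the 59.7, 56.0 and 85.3 of set 1, by 0.45 ± 0.13 (adjusted p = 0.075), but set 2 had 103, 111 and 84.7, and the difference from set 2 was 0.01 ± 0.13. Cdh19, known from glia of the peripheral nerve, had 9.71, 6.72 and 4.96 in the mandibular branch and 32.001, 24.8 and 30.1 in set 1, a difference of -0.60 ± 0.18 (adjusted p = 0.079). Sums over the 4 crest-derived glia markers tested were 172 to 228 in the mandibular branch and 604 to 765 in set 1, and those over the 11 sensory neuron markers were 519 to 549 and 2888 to 2992; their part in the maxillary levels was not tested. The macrophage marker sum was likewise lower in the mandibular branch, as given with the Dlx5/6 mutant.

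In the Dlx5/6 mutant mandibular branch, Itgb5, Itga9 and Cdh11 rose and Cdh6 fell against the wild-type mandibular branch. That was 4 of 32 members, or 12.5%, where 3.16% of all genes were called (1.58% higher and 1.58% lower). The median difference was 0.06 over the members and -0.01 over all genes, and 8 members had an unadjusted p under 0.05. The comparison asks what the loss of Dlx5 and Dlx6 changes in the lower jaw primordium. It shares its WT mandibular arrays with the comparison above, so a low value on those arrays lowers the difference there and raises it here.

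The mutant's Itgb5 signals were 757, 885 and 860.1, all above the WT mandibular 554 to 640.05. The rise was 0.45 ± 0.08 (95% interval 0.29 to 0.62, adjusted p = 0.00169), beside the -0.71 of the wild-type branches. Of its other 3 probe sets, 2 were called higher, by 0.37 and 0.28, and the third differed by 0.27 (adjusted p = 0.17). Against set 1 the mutant was lower by -0.25 ± 0.08, a difference that did not pass (adjusted p = 0.26).

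Itga9 had mutant signals of 157, 125 and 152, against 76.8 to 88.9 on the WT mandibular arrays. The rise of 0.63 ± 0.12 passed (adjusted p = 0.00443) and rests on its brightest probe set; the differences on the other kept probe sets were 0.14 (adjusted p = 0.75) and 0.10 (adjusted p = 0.93). Against set 1 the mutant differed by -0.05 ± 0.12 (95% interval -0.31 to 0.21). Here both groups lay in the same array set.

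Cdh11 had mutant signals of 3082, 2907 and 2970.0, above the 2122 to 2653 of the WT mandibular arrays. The rise was 0.31 ± 0.07 (adjusted p = 0.0113), and its other probe set gave 0.28 ± 0.08, which missed the threshold (adjusted p = 0.0658). The call was lost without Dlx5/6 mutant array 1 or 3 or without WT mandibular array 1 or 2, with adjusted p up to 0.0706, while the difference stayed between 0.24 and 0.40. The mesenchyme marker sum was 9589 to 10065 in the mutant against 7887 to 8512, with 4 of 11 markers called higher and 1 lower; its part was not tested. Itga8 signals of 223, 195 and 216 were also above the wild-type range of 147 to 171, with a difference of 0.34 ± 0.10 that missed the threshold (adjusted p = 0.0618).

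Cdh6, a cadherin gene of the neural crest and neural tube, had the opposite pattern. Its signals were 188, 185 and 166 in the WT mandibular branch and 100.3, 116 and 96.3 in the mutant. No mutant array reached a wild-type one, and the fall was -0.61 ± 0.10 (95% interval -0.82 to -0.39, adjusted p = 0.00113). The dimmer probe set gave 123, 83.2 and 93.0 in the wild type and 47.4, 65.3 and 45.1 in the mutant, a fall of 0.60 (adjusted p = 0.0209). The wild-type branches overlapped in Cdh6, with set 1 at 179, 209 and 170.3 and a difference of -0.05 ± 0.10 (95% interval -0.27 to 0.17). On the brightest probe set the mutant was also below set 1, by -0.65 ± 0.10 (adjusted p = 0.00114), and below set 2 by -0.46 ± 0.10 (adjusted p = 0.00528). On the dimmer probe set the mutant was below set 1 by -0.64 (adjusted p = 0.0376). Its signals there overlapped with the 68.3, 66.6 and 48.7 of set 2. That probe set was itself lower in set 2 than in set 1 (-0.52, adjusted p = 0.0239).

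Cdh6 was the only member called between the Dlx5/6 mutant mandibular branch and set 1, a comparison that asks how near the mutant lower branch comes to an upper branch. That is 1 of 32 members, or 3.12%, where 0.782% of all genes were called (0.524% of all genes lower and 0.258% higher); 6 members had an unadjusted p under 0.05. With set 2 as control, which lies in the other array set, 3 members were called: Cdh6, Itga4 (-0.38, adjusted p = 0.0471) and Itga9 (0.79, adjusted p = 1.44e-04).

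Sums over markers of other cell types also differed in the Dlx5/6 comparison. The summed signal of 14 macrophage markers was 649.56 to 669 in the WT mandibular branch, 894 to 989 in the mutant and 935 to 972 in set 1. All 14 had a positive difference in the mutant and 1, Csf1r, was called (0.59, adjusted p = 4.06e-04); none was listed at 0. The 8 mesoderm and muscle markers summed to 378 to 402 in the wild type and 231 to 272 in the mutant, with 1, the myogenic factor gene Myf5, called lower (-0.92, adjusted p = 0.00113). The 11 sensory neuron markers summed to 519 to 549 in the wild type and 564 to 655 in the mutant, with 8 positive and 2, Neurod1 (0.56, adjusted p = 0.0182) and Sst (0.68, adjusted p = 0.0444), called higher. The sums of 6 megakaryocyte markers (154 to 193 against 210 to 229) and of 6 primitive erythroid markers (23829 to 24766 against 26009 to 29574) did not overlap either, with 0 called by limma and 1 and 0 at an unadjusted p under 0.05. The erythroid rise was in the linear sum only. By log2 difference 3 of these markers were positive and 3 negative, with a median of -0.03. For the megakaryocyte markers 4 were positive and 2 negative, with a median of 0.14. The part of these cells in the changes of Itgb5, Itga9, Cdh11 and Cdh6 was not tested.

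**Figure D2:**
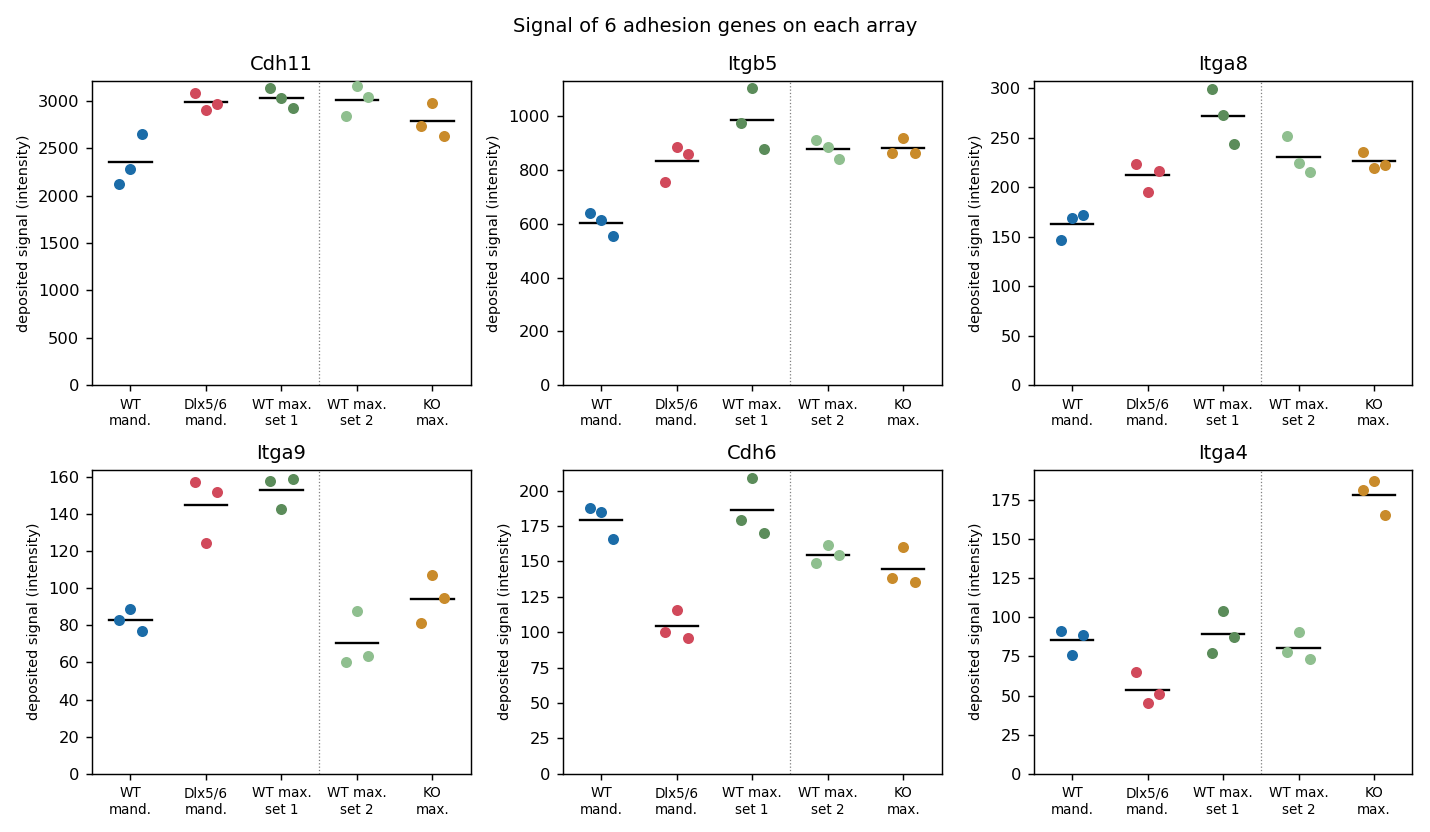
Deposited signal of the 6 members called in the main comparisons on each of the 15 arrays, by group, with a bar at the group mean and a dotted line between the array sets. Cdh6 is lowest in the Dlx5/6 mutant, Itga4 is highest in the KO arrays, and Itga9 differs between the 2 wild-type maxillary sets.

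In the KO maxillary branch the integrin gene Itga4 rose, and it was the only member called against set 2. That is 1 of 32, or 3.12%, beside 1.26% of all genes (0.639% higher and 0.617% lower). The median difference was 0.04 over the members and 0.00 over all genes. Of the 15 cadherins limma called 0, and 4 had an unadjusted p under 0.05. The comparison asks what is changed in the upper jaw primordium of the embryos labelled KO.

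The product of Itga4 pairs with that of Itgb1 as a receptor for VCAM1 and fibronectin, and with that of Itgb7 on lymphocytes. Its signals were 181, 187 and 165 on the KO arrays, 77.6, 90.9 and 73.2 in set 2, and 77.4, 104 and 87.3 in set 1. Every KO array was above every other array of the study, the next being the 104 of set 1. The rise over set 2 was 0.89 ± 0.12 (95% interval 0.64 to 1.15, adjusted p = 1.74e-04), and over set 1 it was 0.80 ± 0.12 (adjusted p = 1.25e-04). With set 1 as control, across the array sets, Itga9 (-0.57, adjusted p = 0.004) and Itgb8 (0.48, adjusted p = 0.0185) were called as well, 2 genes that differed between the wild-type sets themselves.

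Itga4 had 3 further kept probe sets. The brightest of these gave 168, 156 and 167 in the KO arrays and 72.4, 63.2 and 51.1 in set 2, a rise of 1.05 ± 0.17 (adjusted p = 0.00147). That probe set also differed between the wild-type maxillary sets, with 31.98, 25.2 and 30.1 in set 1 (0.63 ± 0.17, adjusted p = 0.0235). The dimmest pair, with group means of 9.84 to 39.7, gave 0.42 (adjusted p = 0.40) and 0.09 (adjusted p = 0.93), which did not pass.

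The promoter window of Itga4 is shown as that of the member with the largest change, on the + strand of GRCm38.p6 from RefSeq, with 250 bases before and 50 after the start.
Itga4, chr2:79255176-79255475: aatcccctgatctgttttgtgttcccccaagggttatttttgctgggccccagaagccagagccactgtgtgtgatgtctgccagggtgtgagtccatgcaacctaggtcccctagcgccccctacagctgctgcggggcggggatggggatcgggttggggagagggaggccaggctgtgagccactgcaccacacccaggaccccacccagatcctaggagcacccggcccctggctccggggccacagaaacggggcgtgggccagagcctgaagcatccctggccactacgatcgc
It holds neither the core nor any of the longer forms on either strand, which says only that these letters are not in the window.

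Vcam1, the gene of the membrane ligand of the receptors with the Itga4 and Itga9 chains, was also higher on the KO arrays. Its signals were 511, 509.67 and 477 there and 383, 379 and 347 in set 2, a rise of 0.42 ± 0.08 (adjusted p = 0.0113). The call was lost when KO array 1 or 2 or set 2 array 3 was left out (adjusted p up to 0.0804). Its other kept probe sets differed by 0.29 (adjusted p = 0.44) and 0.04 (adjusted p = 0.97). Fn1, for fibronectin, averaged 1175 ± 37.7 in the KO and 1093 ± 54.5 in set 2 and did not pass (0.12 ± 0.07, adjusted p = 0.58). The partner genes Itgb1, at 0.23 ± 0.09, and Itgb7, at 0.64 ± 0.27, did not pass either (adjusted p = 0.36 and 0.38).

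Sums over markers of macrophages and endothelium, cell types known to carry such receptors, were higher on the KO arrays along with Itga4, and those of most other lists differed too. The macrophage sum was 1247 to 1355 on the KO arrays against 861 to 1046 in set 2, with 13 of 14 markers positive and 2 called, Csf1r (0.59, adjusted p = 0.00106) and Mrc1 (0.52, adjusted p = 0.0259). The sum of 12 endothelial markers was 1801 to 2119 against 1401 to 1535, with 12 of 12 positive and 1, Emcn, called (0.47, adjusted p = 0.00964). The mesenchyme sum ran the other way, from 8568 to 8817 against 9760 to 10337, in a list that holds Dlx1 and Dlx2. Of the 11 sensory neuron markers 3 were called lower, Nefm, Nefl and Neurog1 (-0.74, -0.72 and -0.78), and their sum was 977 to 994 against 1184 to 1229. The glia sum was lower as well, 355 to 371 against 399 to 511, with 0 of 4 called by limma and 2 at an unadjusted p under 0.05. The mesoderm and muscle sum was higher, 316 to 340 against 206 to 256, with Lhx2 called (0.74, adjusted p = 0.00395). The epithelial sum was 3086 to 3191 against 2720 to 2854, with 0 of 14 called and 5 at an unadjusted p under 0.05, and the erythroid sum 27853 to 28842 against 24947 to 27735, with 0 of 6 called and 1 at such a p. No marker of the macrophage or endothelial list was at 0, and the part of these cells in the rise of Itga4 was not tested. In the Dlx5/6 mutant the macrophage sum was also above that of its wild type (894 to 989 against 649.56 to 669). The endothelial sum of the mutant overlapped with that of its wild type (1393 to 1602 against 1357 to 1566). The Itga4 signals of the mutant were 65.0, 45.5 and 51.1 against a wild-type 91.4, 75.8 and 88.9. The part of these cells in that difference was not tested either.

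**Figure D3:**
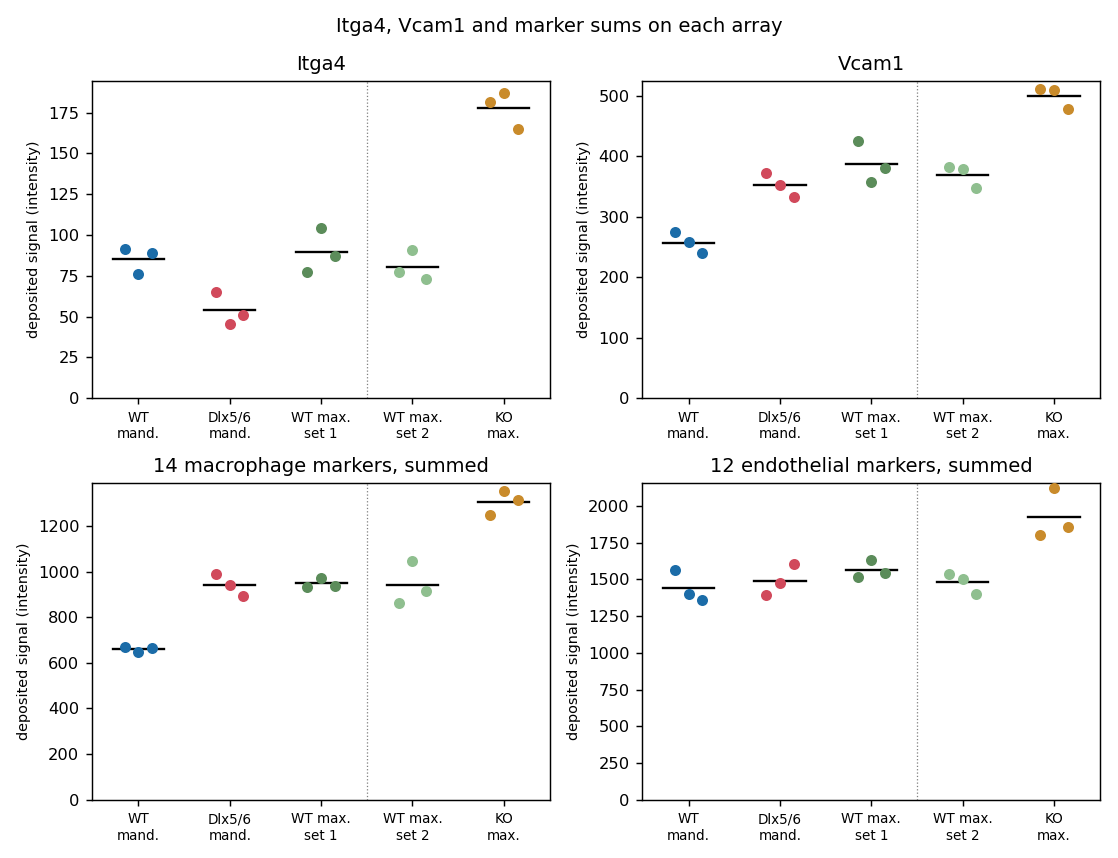
Deposited signal of Itga4 and of its ligand gene Vcam1, and the summed signals of 14 macrophage and 12 endothelial markers, on each of the 15 arrays, with a bar at the group mean and a dotted line between the array sets. All 4 quantities are highest in the KO arrays, while in the Dlx5/6 mutant Itga4 lies below the WT mandibular arrays and the macrophage sum above them.

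Itga6, which encodes the alpha chain of a laminin receptor, gave different answers by probe set in the KO arrays. The brighter probe set read 425, 384 and 407 in the KO and 447, 434 and 462 in set 2, a difference of -0.12 ± 0.08 that did not pass (adjusted p = 0.65). The other read 173, 180.2 and 135 against 267, 269.51 and 279, and its fall of 0.66 passed (adjusted p = 0.00671). Both had every KO array below every array of set 2. Which transcripts each probe set reaches was not examined.

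**Figure D4:**
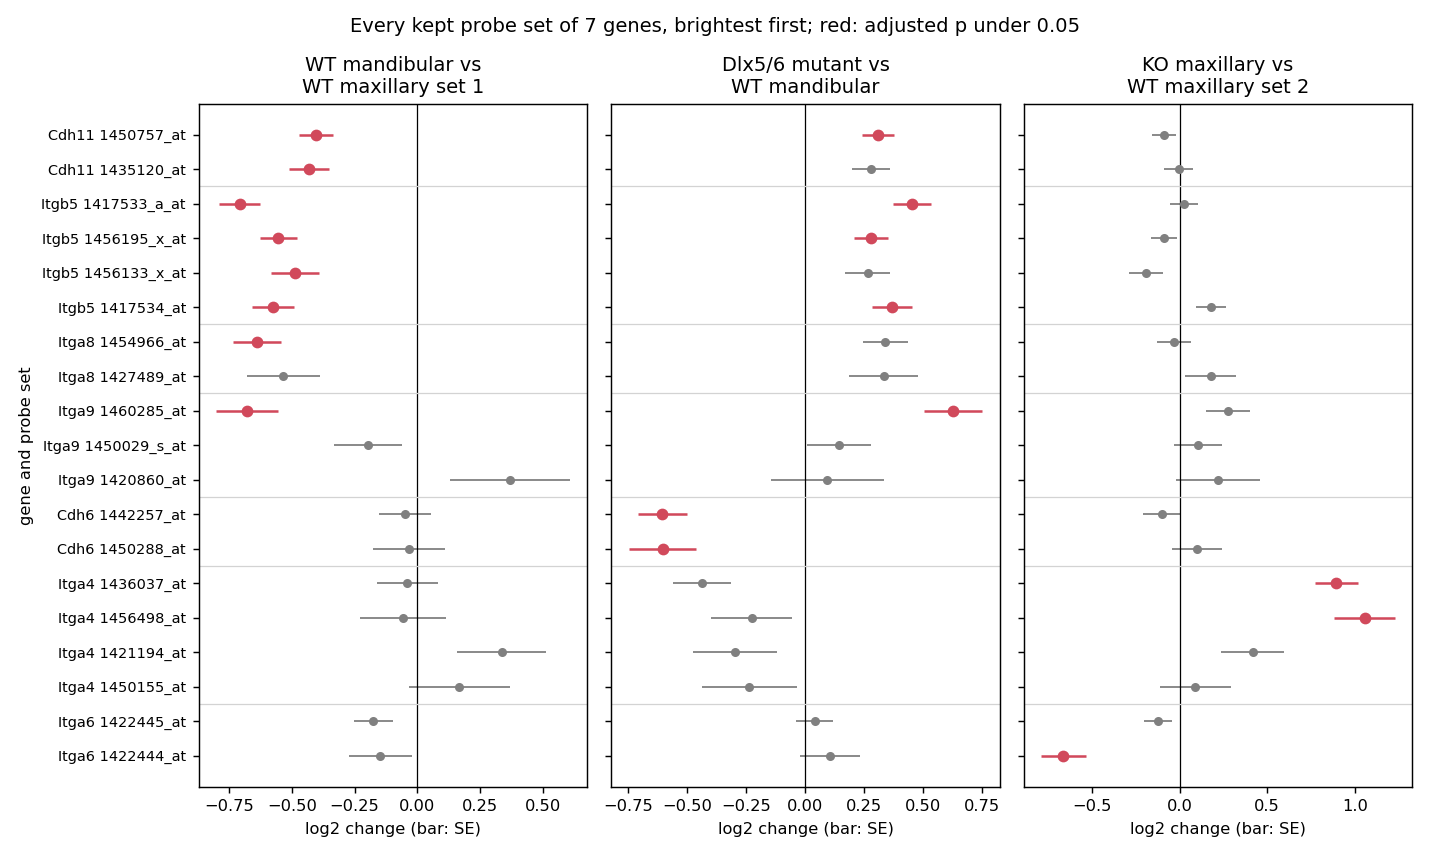
Log2 difference of every kept probe set of Cdh11, Itgb5, Itga8, Itga9, Cdh6, Itga4 and Itga6 in the 3 main comparisons, brightest first except that probe sets marked less specific follow, with the SE as bars and an adjusted p under 0.05 in red. The 4 probe sets of Itgb5 are all red below 0 in the left panel, both of Cdh6 are red in the middle panel, and in the right panel 2 of the 4 of Itga4 and 1 of the 2 of Itga6 are red.

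The effects of the mutations on the members were also set against each other in a test of the difference between them. Here 2 of 32 members were called, or 6.25%, with 1.44% of all genes (0.682% higher and 0.754% lower in the Dlx5/6 effect), and 6 had an unadjusted p under 0.05. The median was -0.07 over the members and -0.01 over all genes. The effects come from different branches and different array sets, which cannot be told apart from the mutations.

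Itga4 had the largest difference, with an effect of -0.44 ± 0.12 in the Dlx5/6 mutant (adjusted p = 0.0641, not called) and 0.89 ± 0.12 in the KO, -1.33 ± 0.17 apart (95% interval -1.69 to -0.97, adjusted p = 6.15e-05). Cdh11 had effects of 0.31 and -0.09, which were 0.40 ± 0.10 apart (adjusted p = 0.0407). That call was lost in 9 of 12 fits that left out 1 array, with adjusted p up to 0.128; it stayed without Dlx5/6 mutant array 2, KO array 2 or WT mandibular array 3. Itgb5, with 0.45 and 0.02, missed the threshold (0.43 ± 0.12, adjusted p = 0.0854), as did Cdh6, with -0.61 and -0.10 (-0.50 ± 0.15, adjusted p = 0.14).

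The wild-type maxillary sets differed in 3 members, Itga9 and Itgal lower and Itgb8 higher in set 2. That is 9.38% of the members against 9.10% of all genes, a share near that of all genes. Itga9 differed by -0.84 ± 0.12 (adjusted p = 9.26e-05). Itgb8 differed by 0.44 ± 0.13 (adjusted p = 0.0373), and Itgal, for the alpha chain of a leukocyte integrin, by -0.71 ± 0.21 (adjusted p = 0.0422). Itgal read 2.36, 16.4 and 12.7 in set 2 and 32.8, 45.0 and 33.1 in set 1, near the dim end of the arrays, and its partner gene Itgb2 was among the genes not kept. Without 1 array the calls of Itgal and Itgb8 were lost in 6 and 4 of 6 fits (for Itgb8, array 1 or 2 of either set), and 1 to 2 members were called.

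Cadherin genes of other tissues were dim and were not called in any of the 3 main comparisons. Cdh15, for the cadherin of muscle cells, had group means of 19.1 to 41.2, Cdh4 of 33.8 to 46.0, Cdh22 of 13.5 to 24.2, Cdh10 of 17.9 to 25.6 and Cdh9 of 6.80 to 23.7. Cdh7, Cdh8, Cdh13, Cdh23 and Cdh26 had no group mean above 29.8. In the KO arrays Cdh23 and Cdh15 differed by 0.50 ± 0.18 and 0.49 ± 0.18 from set 2 (adjusted p = 0.26 and 0.31). Cdh3, for a cadherin of epithelia, had group means of 82.3 to 116, while the 14 epithelial markers summed to 2720 to 3269 over all arrays.

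The alpha chains of the collagen receptors, Itga1, Itga2 and Itga10, had group means of 9.56 to 30.1 and none was called. Itga3 and Itga7, for chains of laminin receptors, averaged 108 to 123 and 3.66 to 23.1. Itga5, for the main fibronectin receptor, was represented by a probe set at 13.9 to 29.7, and a brighter but less specific probe set averaged 75.8 to 106. The differences of the representing, dimmer probe set in the 3 main comparisons were 0.10, -0.06 and 0.12, and none passed. The brighter probe set averaged 91.3 in the WT mandibular branch, 106 in the Dlx5/6 mutant and 104 in set 1. In set 2 and the KO it averaged 75.8 and 76.9. Itgae and Itgb7, for chains of lymphocyte integrins, averaged 13.7 to 24.0 and 8.08 to 32.7.

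Genes of proteins that link these receptors to the actin skeleton were read against the share of all genes called, which was 3.56%, 3.16% and 1.26% in the 3 main comparisons. The list read for cadherin adaptors also held Nectin2, for a nectin, which is itself an adhesion receptor. Of the 15 genes of that list tested (of 16 listed), Afdn, for the nectin-binding afadin, was the only gene called between the wild-type branches and in the Dlx5/6 mutant. It averaged 345 ± 21.6 in the WT mandibular branch, 254 ± 24.5 in set 1 and 255 ± 8.43 in the mutant, higher by 0.39 ± 0.10 (adjusted p = 0.0269) and lower by -0.38 ± 0.10 (adjusted p = 0.0396) in turn. The first call was lost in 4 of 6 fits without 1 array (WT mandibular 1 or 2, set 1 array 1 or 3) and the other in 6 of 6. In the KO arrays limma called 0 of the 15, and 1 had an unadjusted p under 0.05. Of 19 integrin adaptor and signalling genes, limma called 0 in each of the 3 main comparisons, with 3, 5 and 3 at an unadjusted p under 0.05. The median differences of the cadherin adaptors were 0.00, 0.00 and 0.01, and those of the integrin adaptors -0.06, 0.04 and 0.10.

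Between the wild-type maxillary sets, where 9.10% of all genes were called, 5 of the 15 cadherin adaptors were called lower in set 2 (33.3%), and of the 19 of integrins 2 lower and 1 higher (15.8%). Among them were Ctnnd1, for p120-catenin (-0.65, adjusted p = 0.00225), Vcl, for vinculin (-0.29, adjusted p = 0.00566), Fermt2, for a kindlin (-0.40, adjusted p = 0.00217), and Tln1, for talin (-0.35, adjusted p = 0.0359), whose call was lost in 4 of 6 fits without 1 array (array 2 or 3 of either set; adjusted p up to 0.162). Ctnnb1 (-0.16) and Nectin2 (-0.43), also counted among the cadherin adaptors, each lost the call in 4 of 6 fits without 1 array. For Ctnnb1 it was also lost in 6 of 13 other settings, with adjusted p up to 0.89. The wild-type groups compared here lay in different array sets, and what else sets them apart was not given in the labels. Their marker sums also differed. The sensory neuron sum was 2888 to 2992 in set 1 and 1184 to 1229 in set 2, with 10 of 11 markers called lower in set 2. Of the 4 glia markers 2 were called lower. The part of these cells in the differences between the sets was not tested.

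Genes listed as integrin ligands were among those called. Of 27 tested (of 31 listed), 3 were lower and 1 was higher in the mandibular branch than in set 1, or 14.8%, beside 3.56% of all genes (2.00% lower and 1.56% higher). Postn, for the matrix protein periostin, averaged 287 ± 9.30 against 464 ± 29.3 and was lower by -0.64 ± 0.09 (adjusted p = 3.35e-05). Vcam1 was lower by -0.53 ± 0.08 (adjusted p = 3.29e-04), and Edil3, for a matrix protein that binds the receptors with the Itgav chain, by -0.85 ± 0.16 (adjusted p = 0.00279). Tgfb2, for a growth factor of the TGF-beta family, was higher by 0.62 ± 0.15 (adjusted p = 0.0171). That call was lost in 4 of 6 fits without 1 array (WT mandibular 2 or 3, set 1 array 1 or 2). The Edil3 call was lost against set 2 (adjusted p = 0.071).

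In the Dlx5/6 mutant 1 ligand gene rose and 1 fell, or 7.41% of the 27, beside 3.16% of all genes. Vcam1 signals were 275, 258 and 239 on the WT mandibular arrays and 372, 353 and 333 on the mutant arrays. The groups did not overlap, and the rise was 0.42 ± 0.08 (adjusted p = 0.00596). A dimmer probe set rose by 0.55 (adjusted p = 0.0192), and the remaining kept probe set of Vcam1 is not given here. Thbs1, for thrombospondin, averaged 154 ± 8.34 against 102 ± 14.9 and fell by 0.46 (adjusted p = 0.0422), a call lost in 5 of 6 fits without 1 array (all but mutant array 3). In the KO arrays 3 ligand genes rose, or 11.1%, beside 1.26% of all genes (0.639% higher). These were Vcam1 as above, Nid1 for the basement membrane protein nidogen (0.35, adjusted p = 0.0375) and Fbn2 for a fibrillin (0.39, adjusted p = 0.0392), the last pair each lost in 4 of 6 fits without 1 array (Nid1 without array 1 or 2 of either group, Fbn2 without array 2 or 3 of either). Other settings also ended these calls, for Fbn2 in 9 of 14, for Nid1 in 7 of 14 and for Vcam1 in 3 of 14, with adjusted p up to 0.168, 0.171 and 0.0777. The median difference of the 27 was -0.07, 0.02 and 0.23 in the 3 main comparisons, beside 0.00, -0.01 and 0.00 over all genes, and 22 of the 27 were positive in the KO arrays. Set 2, the control of the KO, was itself low. Against set 1 it had 21 of the 27 negative, with a median of -0.16. There 4 were called lower (14.8%, beside 9.10% of all genes). The mean log2 signal of the 27 was 7.41 in the KO, 7.24 in set 2 and 7.41 in set 1.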

How the data were processed

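RNA of 15 branchial arch samples, 3 in each of 5 groups taken from the sample titles, was measured on Affymetrix mouse arrays. The deposited values are linear intensities, 1 per probe set. Per the deposited values, each array had been scaled to a mean of 150 after trimming 2% at each end; its software and summary method: not given in the sources used here. Genes were named from the platform annotation, in which 34958 probe sets had 1 symbol, 932 several and 9211 no entry; 34754 of the first matched the RefSeq gene table and 0 symbols changed. Probe sets with several symbols were left out of gene counts.

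Here 32 was added, log2 taken and arrays quantile normalised. The 31643 probe sets that passed the 40th percentile of an array on 3 arrays or more were fitted in 1 limma model (limma 3.58.1, R 4.3.3) with 5 group means, 10 residual degrees of freedom and an intensity trend. P-values were Benjamini-Hochberg adjusted over them, with a threshold of 0.05. The median SE of a difference was 0.15. The limma steps were tested on simulated data. A gene took its brightest kept probe set, and those marked as less specific (_x_at, _s_at) only where no other was kept. Every member may be named, called ones with all arrays, and up to 4 called genes of each pathway list per comparison. Members and lists were chosen with earlier results of these data known. Samples were not paired by replicate number in the fit. Residual correlations of same-numbered arrays were -0.10 to 0.08 over 30 pairs, which shows no strong shared effect but cannot exclude a pairing. The alternatives were other scalings, pseudocounts, filters, variance models, thresholds, probe set choices, control sets and leaving out each array.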

Additional observations from a re-analysis of the deposited data

Results flagged for a closer look

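The effect of the Dlx5/6 mutation in the mandibular branch and that of the KO in the maxillary branch differed, by the limma test of the difference, in 3 member genes. The log2 difference, Dlx5/6 effect minus KO effect, was -1.33 for Itga4 on its brightest probe set (adjusted p = 6.15e-05) and -1.28 on its next brightest (adjusted p = 0.00542). For Cdh11 it was 0.40 (adjusted p = 0.0407), and its other probe set gave 0.29, which missed the threshold (adjusted p = 0.35). For Itga6 it was 0.77 on the dimmer probe set (adjusted p = 0.0307), while the brighter probe set gave 0.16 (adjusted p = 0.69). Branch and array set differ between these effects along with the mutation, and cannot be told apart from it.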

How the results depend on the processing

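Over 13 to 15 settings and in every fit without 1 array, the calls of Itgb5, Itga8 and Cdh11 between the wild-type branches, of Cdh6, Itga9 and Itgb5 in the Dlx5/6 mutant, of Cdh6 between that mutant and set 1, and of Itga4 in the KO kept their direction and passed. Itga9 between the wild-type branches reversed to 0.16 with set 2 as control and was not called with both sets averaged, an alternative chosen after seeing the data. The Dlx5/6 call of Cdh11 was lost without the intensity trend, at a threshold of 0.01 and in a fit of only the groups compared (adjusted p up to 0.138). In the KO, the calls of the ligand genes Vcam1, Nid1 and Fbn2 were lost with arrays shifted to a common median, without the intensity trend and at 0.01; Nid1 and Fbn2 also with no further scaling, no filter, the replicate block and only the groups compared, and Fbn2 with array weights and with set 1 as control. The cause of these losses was not tested. The less bright probe set of Itga6, in the difference of effects, was also chosen after seeing the data.

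The count of members called was 4 between the wild-type branches (3 to 6 over settings, 4 to 5 without 1 array) and 4 in the Dlx5/6 mutant (3 to 6, and 3 to 4). In the KO it was 1, with 2 when any probe set counted and 3 with set 1 as control; between the mutant and set 1 it was 1, with 3 against set 2. Between the wild-type maxillary sets it was 3, with 1 under no filter, no intensity trend or the 0.01 threshold, 6 with any probe set, and 1 to 2 without 1 array. For the difference of effects it was 2, with 1 under no filter, the replicate block, no intensity trend, the 0.01 threshold or only the groups compared, 6 with set 1 as control, and 1 to 2 without 1 array. The replicate block left the counts of the other comparisons within 1.5 times.

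Over all probe sets, the calls numbered 835 between the wild-type branches (530 to 3318 over settings), 841 in the Dlx5/6 mutant (394 to 1102; 499 and 520 without mutant array 2 or 3), 289 in the KO (152 to 3310; 187, 175 and 179 without KO array 2 or set 2 array 1 or 3), 188 between the mutant and set 1 (107 to 3536; 119 without mutant array 2), 2686 between the maxillary sets (1240 to 2977; 1782 without set 2 array 2) and 346 for the difference of effects (194 to 2246). With 3 arrays a group and a median SE of 0.15, small differences of dim members were not detectable.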
